A study of Mus musculus with 12 samples.

Results

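The clustered histone genes are the protein-coding genes of the mouse genome whose symbol starts with Hist1h, Hist2h, Hist3h or Hist4h. They were taken from the deposited count table of splenic T cells by matching its Ensembl identifiers to the GENCODE annotation of GRCm38. The table held 49315 genes, 49056 of them matched, and 65 were clustered histone genes. Of these, 52 lie in the Hist1 cluster on chromosome 13, 10 in Hist2 on chromosome 3, 2 in Hist3 on chromosome 11 and 1, Hist4h4, on chromosome 6. By the histone they encode, 6 were linker histone H1 genes, 18 H2A, 16 H2B, 12 H3 and 13 H4 genes.

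Splenic T cells came from 12 male mice, 12 weeks old when the infusion began. WT mice and mice with a global deletion of the microRNA miR-214 (miR-214-/-) carried osmotic minipumps for 14 days, with sham buffer or with angiotensin II (Ang II) at 490 ng/kg per day. Ang II is the peptide hormone used to raise blood pressure in this model. The 4 groups held 3 mice each, with 1 library per mouse. The deletion was present in every cell of the miR-214-/- mice and was not limited to T cells. T cells were isolated from spleen by negative magnetic selection, so cells that the antibody mixture does not capture can remain. The comparisons asked what Ang II infusion did to T cell mRNA in each genotype, and whether the genotypes differed.

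Histones are the proteins around which DNA is wound. H2A, H2B, H3 and H4 form the nucleosome core, and H1 binds the DNA between nucleosomes. A dividing cell must make new histones while it copies its DNA, so most of these genes are transcribed mainly in S phase. Their mRNAs are unusual: they carry no introns and, in place of a poly(A) tail, end a few bases after a stem-loop that is bound by the protein SLBP. Some of the genes can also make a longer, polyadenylated transcript, which cells that do not divide can express. The libraries here were made from RNA captured on oligo(dT) beads, which bind poly(A) tails, so the levels below are those of the histone transcripts that such a capture retained.

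The stem-loop was found in the annotated transcripts of 44 of the 65 members (67.7%), in each of them after the stop codon. Of 21886 other protein-coding genes, 33 (0.151%) held the stem-loop anywhere in a transcript. It was searched for on the transcript strand by the histone stem-loop pattern, a stem of 6 base pairs around a loop of 4 bases. The sequences are printed for 5 genes on which results below turn, read 5′ to 3′ from the GRCm38 transcripts with the paired arms in capitals and the loop in lower case.
Hist1h2ad at chr13:23574895-23574910, plus strand: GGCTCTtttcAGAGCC
Hist1h3c at chr13:23745047-23745062, minus strand: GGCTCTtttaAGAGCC
Hist1h1c at chr13:23739512-23739527, plus strand: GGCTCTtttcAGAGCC
Hist1h4i at chr13:22040966-22040981, minus strand: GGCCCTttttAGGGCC
Hist3h2a at chr11:58955172-58955187, plus strand: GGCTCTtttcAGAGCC
The first form in this list, with arms GGCTCT and AGAGCC around tttc, was the commonest, with 24 members of the H1, H2A, H2B and H3 classes. The same arms around ttta were found in 6 members of the H1, H2B and H3 classes. Among the H4 genes the arms were GGCCCT and AGGGCC around tttc in 7 members, around tttt in 2 and around tctc in 1, and GGTCCT and AGGACC around tttc in 2. In the transcript with the longest 3′ end of each gene, the stem-loop began 21 to 58 bases after the stop codon in 43 members.

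The annotation gives the members very different 3′ ends. In 38 members at most 114 bases follow the stop codon, and these are called short 3′ end members here. In the other 27 at least 150 bases follow it, with a median of 799 against 61.5 in the short group, and these are called long 3′ end members. The poly(A) signal AATAAA stood in the last 50 bases of 12 of the 27 long and of 0 of the 38 short 3′ end members. The stem-loop was present in 22 long and 21 short 3′ end members, and the annotated sequence of the 17 short ones without it stops 0 to 48 bases after the stop codon. The split at 140 bases was made from the annotation after the counts had been seen, so what follows from it is a description.

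The promoters of the 3 genes that rose in WT mice with Ang II are printed as the 300 bases from 250 before to 50 after the start site, from RefSeq on GRCm38.p6. Capitals mark CCAAT or its reverse ATTGG, the TATA box TATAAA, and AAACACA, a box known from H1 promoters.
Hist1h2ad at chr13:23574131-23574430, plus strand: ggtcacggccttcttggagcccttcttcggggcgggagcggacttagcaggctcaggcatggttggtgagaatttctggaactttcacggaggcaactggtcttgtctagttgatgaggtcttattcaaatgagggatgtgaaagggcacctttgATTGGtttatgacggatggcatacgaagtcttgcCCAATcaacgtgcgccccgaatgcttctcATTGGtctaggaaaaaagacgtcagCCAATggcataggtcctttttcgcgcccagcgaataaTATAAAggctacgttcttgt
Hist1h1b at chr13:21780576-21780875, minus strand: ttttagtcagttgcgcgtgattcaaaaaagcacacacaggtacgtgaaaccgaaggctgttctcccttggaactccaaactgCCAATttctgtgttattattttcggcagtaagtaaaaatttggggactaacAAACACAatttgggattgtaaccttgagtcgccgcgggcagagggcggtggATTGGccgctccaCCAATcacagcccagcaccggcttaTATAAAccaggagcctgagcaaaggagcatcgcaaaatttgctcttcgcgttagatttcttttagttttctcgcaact
Hist1h3c at chr13:23745472-23745771, minus strand: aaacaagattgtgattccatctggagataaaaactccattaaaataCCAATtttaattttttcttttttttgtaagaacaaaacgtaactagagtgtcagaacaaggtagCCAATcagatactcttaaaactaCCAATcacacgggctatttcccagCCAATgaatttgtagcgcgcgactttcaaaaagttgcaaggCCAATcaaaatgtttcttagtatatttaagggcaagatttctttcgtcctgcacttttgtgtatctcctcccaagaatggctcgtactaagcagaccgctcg
RefSeq promoters were matched for 59 of the 65 members. On either strand, CCAAT was present in 50 of the 59 (84.7%) and in 37.4% of 32851 mouse promoters of the same length. It was present in every matched H1, H2A, H2B and H3 promoter, and in 3 of 12 H4 promoters. TATAAA was present in 34 (57.6%, against 13.6% of all promoters). ATTTGCAT, the octamer bound by Oct1, was present in 12 (20.3% against 1.74%), of which 7 were H2A and 5 H2B genes. AAACACA was present in 7 (11.9% against 7.18%), and 4 of these were among the 5 H1 promoters. Such matches describe the sequence and are not measured binding sites.

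The mature miR-214 sequences show which 3′ ends they could pair with through the seed, bases 2 to 8, in capitals (RefSeq, GRCm38.p6, plus strand).
miR-214-3p at chr1:162223438-162223459: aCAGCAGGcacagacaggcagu
miR-214-5p at chr1:162223397-162223418: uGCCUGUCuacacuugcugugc
CCTGCTG, the match to the seed of miR-214-3p, was present after the stop codon of 2 of 65 members, Hist1h2be and Hist2h4 (3.08%), and of 21.1% of 21697 other protein-coding genes. The sequences searched were shorter in the members, with a median of 94 bases against 1040. Per kb of sequence the members held 0.128 matches and the other genes 0.185. The match to miR-214-5p, GACAGGC, was present in 1 member, Hist2h4, and in 9.10% of the other genes. The counts could not show the deletion itself, since Mir214 had 0 counts in all 12 libraries and its host transcript Dnm3os had 1 count, in the library WT Ang II 3.

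Total counts per library were between 21126874 and 29605988. Each library gave the T cell genes of the marker list (10 genes, all with enough counts for the test, among them Cd3e and Cd4) a summed level of 2901 to 5024 CPM (counts per 1000000 counts of the library, scaled by TMM). The WT Ang II libraries lay at 2901 to 3517 on this sum, below the WT sham libraries at 4329 to 5024. Between these groups 8 of the 10 genes had an adjusted p under 0.05, against 3009 of all 16012 genes tested. Red-cell precursor and neutrophil genes went the other way, with 6 of 11 and 8 of 8 called higher in WT Ang II, against 7.01% of all genes tested. The 6 B cell genes had negative values there, with 0 called. The 11 red-cell precursor genes summed to 418 to 594 CPM in WT sham and 1479 to 5822 in WT Ang II, and the 8 neutrophil genes to 193 to 244 and 1073 to 3240. In bulk RNA, fewer cells of a type and less RNA per cell cannot be told apart.

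Clustered histone transcripts were a very small part of these libraries, between 0.00497% and 0.00894% of all counts. The 65 members held 21228 counts over the 12 libraries, and 36.0% of these, 7651 counts, fell on Hist1h1c alone. The 5 members with the most counts held 65.6%. At least 1 count was found for 57 members, and 8 had 0 counts in every library: Hist1h1t, Hist1h2aa, Hist2h2aa1, Hist2h2aa2, Hist1h2bq, Hist2h2bb, Hist2h3b and Hist2h3c1. A count of 0 allows up to 3 counts in a library, for counting error only. In 45 members no library exceeded 20 counts, and 32 passed the filter on low counts in at least 1 comparison.

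Only reads with a single place in the genome were counted, and the members are near copies of each other. Stretches of 150 bases, the length of 1 read, were called unique if no transcript of another gene held them on either strand. The median share was 83.2% in the long 3′ end members and 47.4% in the short ones. A gene that overlaps a member at the same place also makes a stretch not unique, so these shares mix copies elsewhere with overlaps. In 5 members no such stretch was unique, and all 5 had 0 counts. Exons of other annotated genes cover 100% of each, in Hist2h3c1 on the same strand and in the others on the opposite strand. Copies and overlaps cannot be told apart there. At least 80% of stretches were unique in 25 members, and under 20% in 13, so the values of the latter are uncertain.

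Levels are compared between genes as CPM per kb of exon, the mean over 12 libraries. Hist1h1c was the highest at 16.2 CPM per kb. After it came Hist1h4i at 4.22, Hist2h2be at 3.58, Hist1h2bc at 3.31 and Hist1h2ad at 2.65. Of these 5, Hist1h2ad was the only one with a short 3′ end. The long 3′ end members held 86.4% of the member counts and the short ones 13.6%, while the median levels were close, 0.465 and 0.401 CPM per kb.

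**Figure D1:**
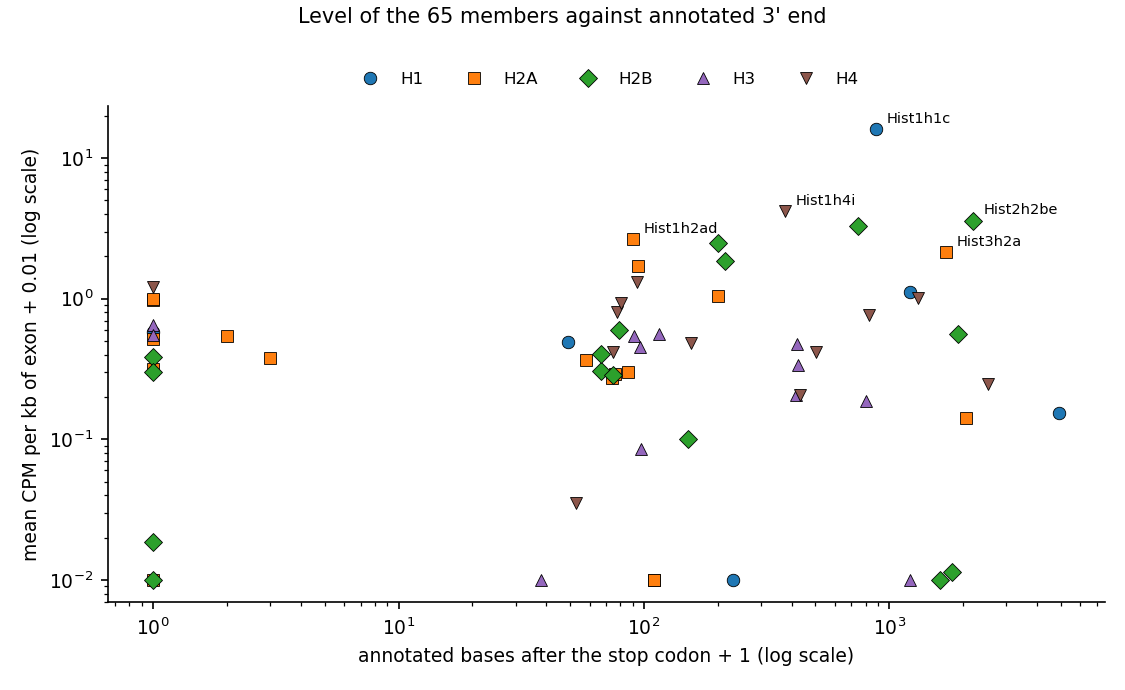
Each point is 1 of the 65 members, with the annotated bases after its stop codon plus 1 on a log x axis and its mean level over 12 libraries (CPM per kb of exon plus 0.01) on a log y axis, coloured by histone class. Hist1h1c at 16.2 CPM per kb stands above all others, and the short 3′ end members reach up to 2.65.

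In WT mice, summed transcripts of the short 3′ end members were higher in every Ang II library than in every sham library. The 38 genes summed to 5.71, 7.73 and 6.19 CPM in WT sham 1, 2 and 3, and to 13.0, 14.9 and 15.4 CPM in WT Ang II 1, 2 and 3. These sums rest on 131 to 417 counts per library. The means were 6.54 ± 1.06 and 14.4 ± 1.28 CPM (SD, n = 3), a ratio of 2.21. In contrast, the 27 long 3′ end members summed to 57.6, 68.8 and 46.4 CPM in WT sham and 74.7, 58.6 and 55.6 CPM in WT Ang II, so the groups overlapped, with a ratio of 1.09.

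Sham libraries of miR-214-/- mice had short 3′ end sums of 6.06, 8.87 and 10.1 CPM, and the Ang II libraries of these mice 12.5, 6.98 and 6.59 CPM. The groups overlapped and the ratio of their means was 1.04. Library miR-214-/- Ang II 1, at 12.5 CPM, lay near the WT Ang II libraries, and the other two lay among the sham libraries. For the long 3′ end members the ratio was 0.913, with 54.1 to 71.6 CPM in sham and 45.9 to 68.4 CPM in Ang II. Between the sham groups the short 3′ end sum was 1.27 times as high in miR-214-/- as in WT, with overlapping libraries. No test was run on these sums.

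**Figure D2:**
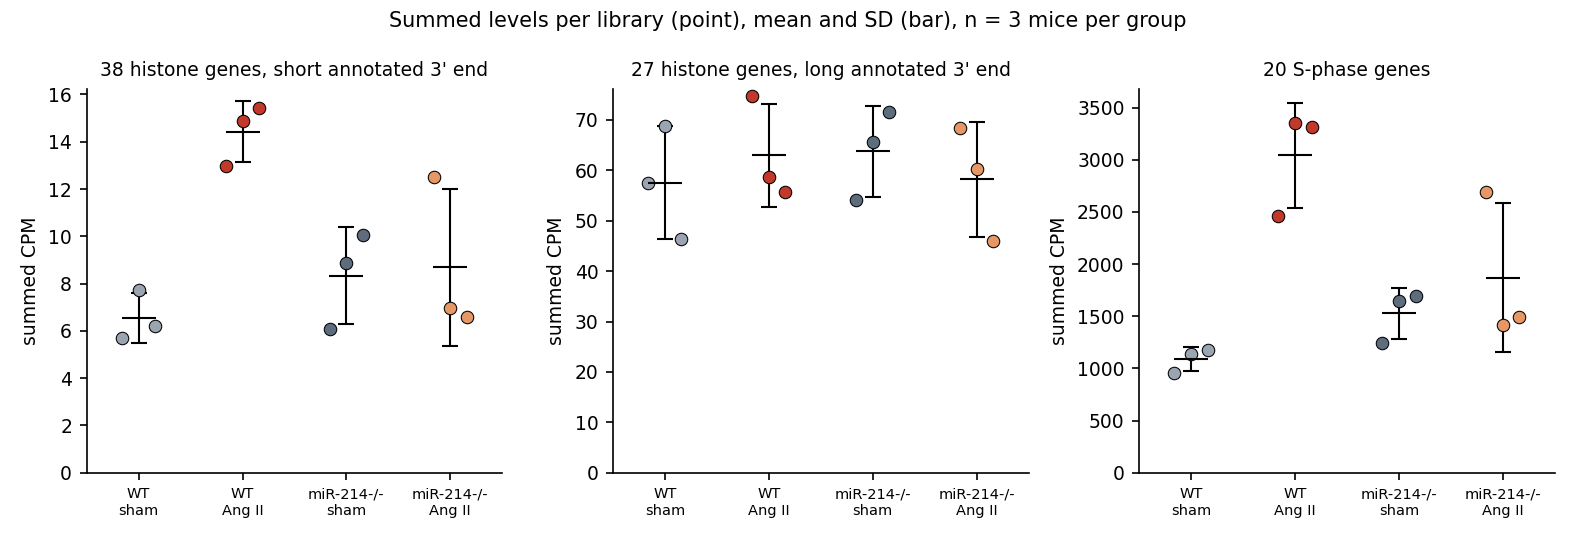
Summed CPM of the 38 short 3′ end members, the 27 long 3′ end members and 20 genes of S phase in each of the 12 libraries, 1 point per library by group, with the group mean as a line and the SD as a bar. On the short 3′ end sum the WT Ang II libraries, at 13.0 to 15.4 CPM, lie above the WT sham libraries at 5.71 to 7.73, while the long 3′ end sums overlap.

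The levels of 20 S phase genes, a list of replication factors that holds no member, are given beside these sums. They summed to 958 to 1173 CPM in WT sham, 2463 to 3354 in WT Ang II and 1245 to 1689 in miR-214-/- sham. In miR-214-/- Ang II they summed to 2690, 1419 and 1494 CPM, with library 1 again the highest. In WT all 20 were higher with Ang II at an adjusted p under 0.05, which 3009 of all 16012 genes tested reached in either direction. Of the 20, 17 also had a log2 fold change over 1, and 7.01% of all genes tested met both limits. In miR-214-/- 0 of 20 passed the test, as did 0 of all 15937 genes, and the smallest adjusted p of the 20 was 0.420. The red-cell precursor list gave 932, 4731 and 668 CPM in miR-214-/- Ang II 1, 2 and 3, and the neutrophil list 1182, 2966 and 599 CPM. Within each list the genes differed in their order over these libraries. The globin gene Hbb-bs was at 113, 1976 and 228 CPM, so library 2 was the highest. Klf1, a transcription factor of red-cell precursors, was at 97.5, 21.3 and 11.6 CPM, and Ermap, a red-cell membrane protein gene, at 202, 33.4 and 18.5 CPM. On these, as on the short 3′ end sum, library 1 was the highest. Klf1 was at 8.28 to 23.7 CPM in WT sham, at 47.0, 172 and 137 CPM in WT Ang II and at 12.3, 58.6 and 51.1 CPM in miR-214-/- sham. Like the short 3′ end sum, its WT groups did not overlap, and library 1 was the lowest of the WT Ang II and of the miR-214-/- sham libraries. Elane, a gene of neutrophil precursors, was at 86.2, 27.2 and 39.7 CPM in miR-214-/- Ang II, again highest in library 1. The sums of the red-cell precursor and the neutrophil list were highest in library 2 instead. Hbb-bs, Klf1, Ermap and Elane were named after their values were seen. The order of the other genes of these lists is not given, so these genes do not stand for their lists. The part of red-cell and neutrophil precursors in the histone sums was not tested. The plasma cell list (4 genes) was at 138 to 748 CPM in WT sham and at 508, 1447 and 1760 CPM in WT Ang II. In miR-214-/- it was at 186, 887 and 899 CPM in sham and at 1151, 310 and 202 CPM in Ang II. Outside WT sham, its libraries stood in the same order as on the short 3′ end sum. The part of plasma cells in the histone sums was not tested. Megakaryocyte genes (5 genes) summed to 17.5 to 32.2 CPM in WT sham and 47.0 to 57.9 in WT Ang II, macrophage genes (5 genes) to 261 to 382 and 473 to 1797, and B cell genes (6 genes) to 62.2 to 322 and 108 to 160. The part of these lists was not tested either.

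In WT, Ang II raised 3 clustered histone genes and lowered 0 with an adjusted p under 0.05 and a log2 fold change beyond 1 in either direction. These genes were Hist1h2ad, Hist1h1b and Hist1h3c, all of which have short 3′ ends. Of the 65 members, 24 had enough counts for the test, so 3 of 24 were called, while 7.3% of all 16012 genes tested were called and 7.01% were called higher. An unadjusted p under 0.05 was reached by 8 of the 24, against 35.6% of all genes tested. DESeq2 called 2 of 26 members with an adjusted p, against 8.47% of such genes. The lists of other blood cells given above, all but B cells, had higher mean sums in WT Ang II than in WT sham. The part of these cells in the calls was not tested. The count of 3 depended on single libraries: it was 0 without WT sham 1, 1 without WT sham 2, WT sham 3, WT Ang II 2 or WT Ang II 3, and 5 without WT Ang II 1. The log2 fold change was positive for all 8 short 3′ end members tested, with a median of 0.76, and for 8 of 16 long ones, with a median of -0.01. Over the 24 the median was 0.29 and over all genes tested -0.02. Members with few counts passed the filter through the libraries where they were high, so these medians do not stand for the whole list.

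A count over the libraries takes in the members that were too low for the test. All 3 WT Ang II libraries lay above all 3 WT sham libraries for 24 of the 57 members with a count (42.1%), against 12.1% of 30192 genes with a count. Here and in the other such shares, the genes were not matched to the members by number of counts. All 3 lay below for 2 members, Hist3h2a and Hist2h3c2 (3.51%, against 13.6% of genes). Of the 33 short 3′ end members with a count, 20 were higher without overlap and 0 lower. Of the 24 long ones, 4 were higher without overlap (Hist1h2ae, Hist1h2bc, Hist1h3d and Hist1h4i). By group sums alone, 43 members were higher and 14 lower in WT Ang II.

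Each class of core and linker histone was represented among the short 3′ end members with higher sums in WT Ang II. The ratio of mean CPM was 3.42 for the 2 short H1 genes, 3.39 for 7 H3, 2.23 for 8 H2B, 2.20 for 15 H2A and 1.5 for 6 H4 genes. The ratio over the 35 short 3′ end members that were not called was 1.99. Of all 38 short 3′ end members, 9 had at least 80% unique stretches, and their ratio was 1.93. These 9 include 2 of the called genes, Hist1h1b and Hist1h3c.

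**Figure D3:**
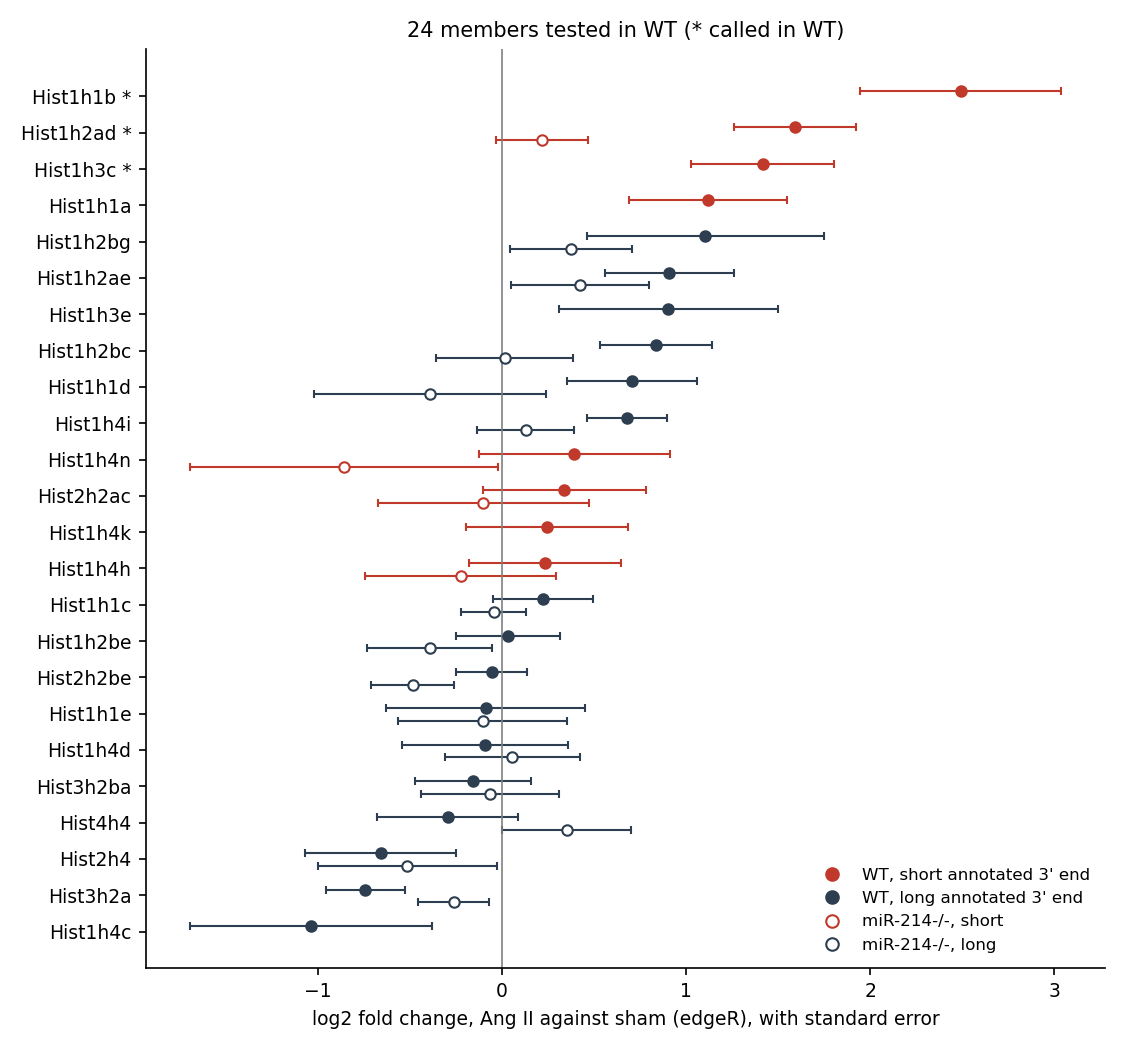
Log2 fold change of Ang II against sham for the 24 members tested in WT, filled for WT and open for miR-214-/- where the gene was tested there, with bars of 1 SE. The largest WT value is 2.49 for Hist1h1b, and all 8 short 3′ end members lie above 0 in WT.

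Among the H1 genes, Hist1h1b (chromosome 13, 21779883 to 21780625, minus strand, 1 exon) had the largest change. It encodes the linker histone H1.5, and its annotated transcript stops at the stop codon, so no stem-loop is printed for it. Its levels were 0.0872, 0.278 and 0.0455 CPM in WT sham, from 2, 7 and 1 counts, and 0.702, 0.784 and 0.931 CPM in WT Ang II, from 20, 22 and 22 counts. The lowest Ang II library was thus above the highest sham library. Hist1h1b rose with a log2 fold change of 2.49 (SE 0.55, adjusted p = 0.0243 by edgeR's quasi-likelihood test). In miR-214-/- mice it was at 0.291, 0.186 and 0.393 CPM in sham and at 0.907, 0.217 and 0.262 CPM in Ang II, too few counts to be tested. The groups overlapped, and library 1 alone was high, as on the summed levels.

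Hist1h1c (23738808 to 23740367 on chromosome 13, plus strand) encodes H1.2, a linker histone found in most cell types. It was at 25.9, 26.9 and 16.9 CPM in WT sham and at 36.9, 21.8 and 21.4 CPM in WT Ang II. In miR-214-/- it was at 24.5, 24.6 and 28.6 CPM in sham and at 28.5, 27.6 and 18.8 CPM in Ang II. All groups overlapped, and the log2 fold change was 0.22 in WT (SE 0.27, adjusted p = 0.594) and -0.05 in miR-214-/- (SE 0.18, adjusted p = 0.933). Hist1h1a, which encodes H1.1 and has a short 3′ end, was at 0.159 to 0.410 CPM in WT sham and 0.491 to 0.677 CPM in WT Ang II without overlap, and its log2 fold change of 1.12 did not pass the test (SE 0.43, adjusted p = 0.110). Hist1h1d had a value of 0.71 (SE 0.35, adjusted p = 0.199) and Hist1h1e of -0.09 (SE 0.54, adjusted p = 0.922). Of the exonic bases of Hist1h1e 25.7% are shared with genes on the same strand, among them Hist1h2be.

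Of the H2A genes, Hist1h2ad (23574381 to 23574952 on chromosome 13, plus strand, 1 exon) had the most counts of the 3 that rose. It was at 0.436, 0.872 and 0.956 CPM in WT sham and at 2.67, 2.21 and 1.86 CPM in WT Ang II, from 10 to 22 and 44 to 76 counts. The WT groups did not overlap, and the log2 fold change was 1.59 (SE 0.33, adjusted p = 0.0208). In miR-214-/- mice Hist1h2ad was at 1.16, 1.53 and 1.57 CPM in sham, above every WT sham library, and at 1.81, 1.81 and 1.31 CPM in Ang II, below every WT Ang II library. Its change with Ang II there was 0.22 on the log2 scale (SE 0.25, adjusted p = 0.743). Of its stretches of 150 bases 40.7% were unique, against 100% in Hist1h1b and 84.4% in Hist1h3c. Antisense to 24.1% of its exonic bases lies Gm44359, and the strand setting of the counting is not given in the sources used here.

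Hist3h2a (chromosome 11, 58954685 to 58956830, plus strand) had the highest CPM among the H2A genes and went the other way. It was at 5.84, 6.54 and 4.23 CPM in WT sham and at 3.44, 3.21 and 3.13 CPM in WT Ang II, with no overlap. The log2 fold change of -0.74 missed the threshold (SE 0.21, adjusted p = 0.0527). In miR-214-/- it was at 4.65, 5.76 and 5.26 CPM in sham and 4.93, 4.34 and 3.71 CPM in Ang II (log2 fold change -0.26, SE 0.19, adjusted p = 0.602). On the same strand Trim17 shares 33.0% of its exonic bases. Hist1h2ae, a long 3′ end member, had a value of 0.91 in WT (SE 0.35, adjusted p = 0.113). Hist2h2ac had 0.34 (SE 0.44, adjusted p = 0.622), and Hist1h2ak, at 0.273 to 0.397 CPM in WT sham and 0.316 to 0.570 in WT Ang II, was too low to be tested.

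No H2B gene passed the test in WT, and the 5 tested all had long 3′ ends. Hist2h2be (chromosome 3, 96221119 to 96223738, plus strand), known for a polyadenylated form, was at 9.76, 9.95 and 10.1 CPM in WT sham and at 7.20, 11.8 and 9.23 CPM in WT Ang II. The sham libraries lay within the range of the Ang II libraries (log2 fold change -0.06, SE 0.19, adjusted p = 0.859). In miR-214-/- it was at 8.39, 12.3 and 11.2 CPM in sham and 9.31, 6.0 and 7.33 CPM in Ang II. With overlapping groups, its value of -0.49 there had the smallest adjusted p of the members in that comparison (SE 0.23, adjusted p = 0.442). Hist1h2bc was at 2.92, 3.41 and 1.73 CPM in WT sham and at 5.93, 3.95 and 4.32 CPM in WT Ang II without overlap, and its 0.84 did not pass the test (SE 0.30, adjusted p = 0.0978). Hist1h2bg had a value of 1.10 (SE 0.64, adjusted p = 0.260), with library WT Ang II 1 at 4.49 CPM and the other two at 0.962 and 1.10. Hist1h2be at 0.03 (SE 0.28, adjusted p = 0.949) and Hist3h2ba at -0.16 (SE 0.32, adjusted p = 0.750) lay close to 0.

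Hist1h3c (23744973 to 23745602 on chromosome 13, minus strand, 1 exon) was the H3 gene that rose in WT. It was at 0.131, 0.238 and 0.228 CPM in WT sham, from 3, 6 and 5 counts, and at 0.562, 0.606 and 0.423 CPM in WT Ang II, from 16, 17 and 10 counts. The groups did not overlap, and the log2 fold change was 1.42 (SE 0.39, adjusted p = 0.0458). DESeq2 did not call this gene (adjusted p = 0.185), while it called the other two. In miR-214-/- Hist1h3c was at 0.166, 0.232 and 0.250 CPM in sham and at 0.513, 0.325 and 0.524 CPM in Ang II. It was the 1 member whose miR-214-/- Ang II libraries all lay above the sham libraries, and its counts were too low for the test there.

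No other H3 gene was called. Hist1h3e, with a long 3′ end, was at 0.131, 0.595 and 0.182 CPM in WT sham and 0.772, 0.392 and 0.550 CPM in WT Ang II (log2 fold change 0.90, SE 0.60, adjusted p = 0.318). Hist1h3h was at 0.0397 to 0.218 CPM in WT sham and 0.281 to 0.592 CPM in WT Ang II without overlap, and Hist1h3a at 0 to 0.357 and 0.281 to 0.550 CPM with overlap. Both were too low for the test, as was Hist2h3c2. Over all 12 H3 genes the sums were 1.31, 2.26 and 1.32 CPM in WT sham and 3.58, 3.28 and 3.72 CPM in WT Ang II, a ratio of 2.17. In miR-214-/- these sums overlapped, with a ratio of 1.03.

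**Figure D4:**
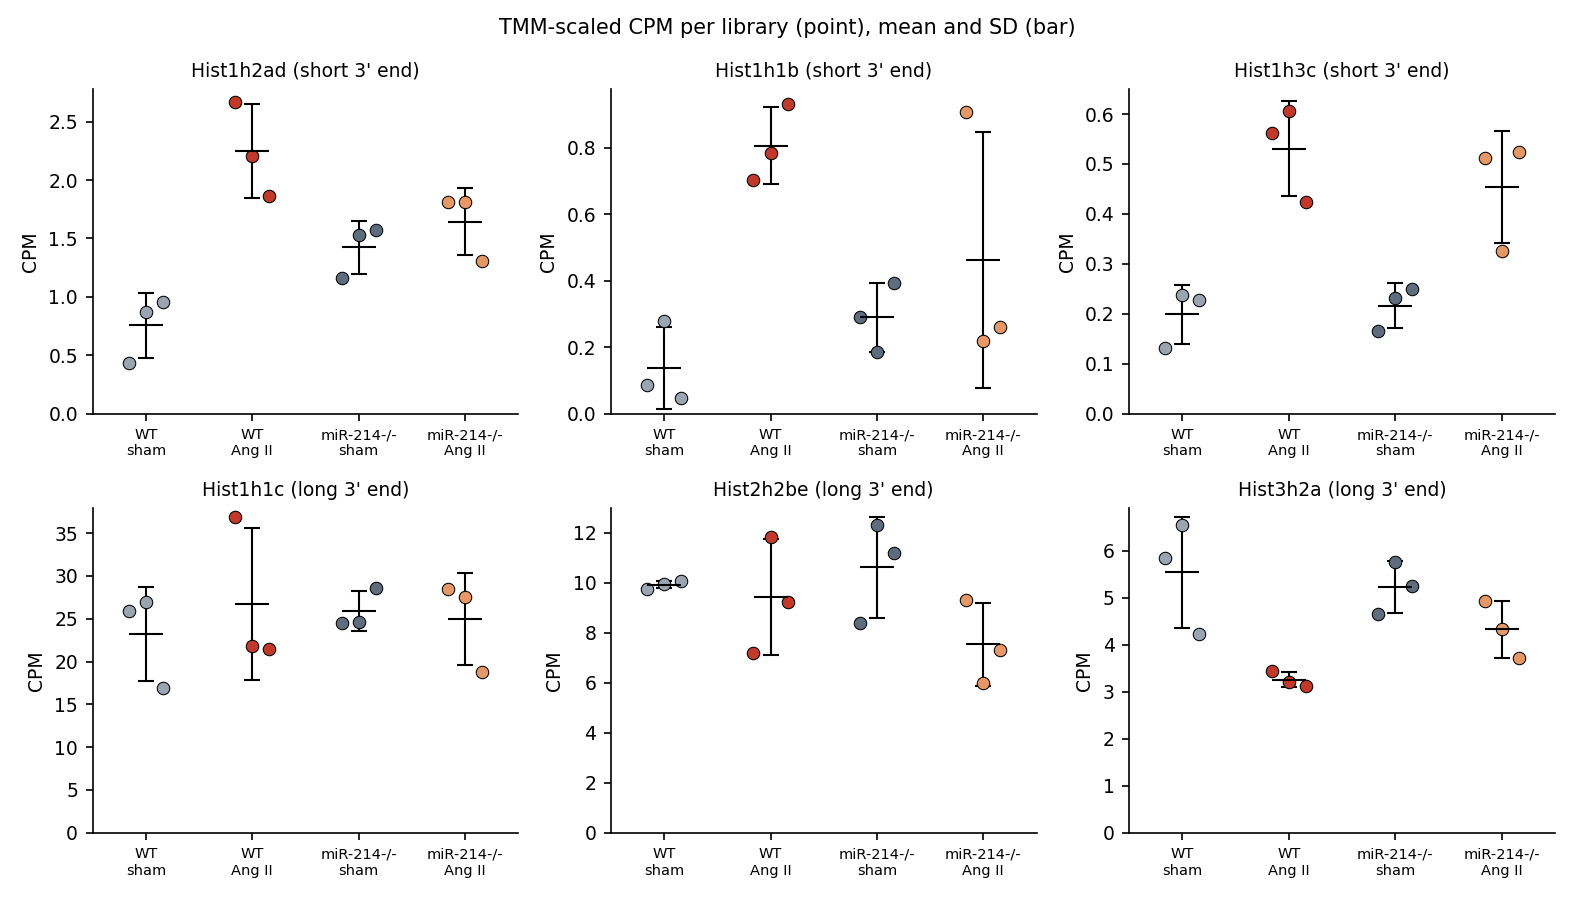
CPM in each of the 12 libraries for Hist1h2ad, Hist1h1b, Hist1h3c, Hist1h1c, Hist2h2be and Hist3h2a, 1 point per library, with group means as lines and SDs as bars. The WT Ang II libraries lie above the WT sham libraries without overlap in the first 3 panels, overlap in Hist1h1c and Hist2h2be, and lie below in Hist3h2a.

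H4 genes showed no called change in WT, with 8 of 13 tested. Hist1h4i (22040636 to 22041362 on chromosome 13, minus strand) is a long 3′ end member. It was at 2.18, 3.09 and 2.23 CPM in WT sham and at 4.42, 3.78 and 3.64 CPM in WT Ang II. The groups did not overlap, and the log2 fold change of 0.68 did not pass the test (SE 0.22, adjusted p = 0.0715). In miR-214-/- it was at 2.70, 2.51 and 3.15 CPM in sham and 2.64, 4.09 and 2.36 CPM in Ang II (log2 fold change 0.13, SE 0.26, adjusted p = 0.864). Hist2h4 at -0.66 (SE 0.41, adjusted p = 0.289) and Hist4h4 at -0.30 (SE 0.38, adjusted p = 0.618) had negative values, and Hist1h4d at -0.09 (SE 0.45) and Hist1h4h at 0.23 (SE 0.41) lay within 1 SE of 0. The lowest value of the 8 tested was -1.04, in a long 3′ end gene outside the named ones, and it was not called.

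In miR-214-/- mice, 0 of 22 members tested passed the test with Ang II, and 0 of all 15937 genes did (0% called). At an unadjusted p under 0.05 there were 0 members, against 12.2% of all genes tested. DESeq2 called 51 genes in this comparison (0.391%), of which 0 were members. The median log2 fold change was -0.06 over the members and 0.03 over all genes tested. Without overlap, 1 member was higher (Hist1h3c, against 6.1% of genes) and 1 lower (Hist1h4j, against 6.77%) of the 57 with a count. By group sums 28 members were higher and 27 lower.

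Between the sham groups, 0 of 18 members tested differed by genotype, with 0.0189% of 15913 genes called. An unadjusted p under 0.05 was reached by 2 members, against 6.67% of genes tested, and DESeq2 called 0, against 0.312%. Hist1h2ad had a value of 0.91 for miR-214-/- against WT (SE 0.34, adjusted p = 0.701), with all miR-214-/- libraries higher. In all, 4 members lay higher in miR-214-/- without overlap (Hist1h2ac, Hist1h2ad, Hist1h2ao and Hist1h3d, against 3.98% of genes) and 1 lower (Hist1h2bb, against 3.9%).

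Between the Ang II groups, 0 of 28 members tested were called, and 0 of all 16215 genes (0%). By edgeR 1 member, Hist1h2bk, had an unadjusted p under 0.05, against 8.56% of genes tested, and DESeq2 called 0 members, against 0.128% of genes. Hist1h2ad was lower in all 3 miR-214-/- libraries with a log2 fold change of -0.45 that did not pass the test (SE 0.25, adjusted p = 0.584). Hist1h1b had -0.79 (SE 0.56, adjusted p = 0.623) and Hist1h3c -0.23 (SE 0.33, adjusted p = 0.795). Without overlap, 9 members lay below WT in miR-214-/- (15.8% of 57, against 4.41% of genes) and 1, Hist3h2a, was higher (against 5.99%). All 9 were short 3′ end members: Hist1h1a, Hist1h2ab, Hist1h2ad, Hist1h2ah, Hist1h2bk, Hist1h2bn, Hist1h3h, Hist1h3i and Hist1h4f. These comparisons share libraries with those of Ang II against sham.

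The difference of the Ang II response between genotypes was tested as an interaction over all 12 libraries. Of 31 members tested 0 passed, with 0.00596% of 16770 genes called, and 2 reached an unadjusted p under 0.05, against 14.8% of genes tested. DESeq2 also called 0 members, against 3.22% of genes. The smallest adjusted p was that of Hist1h2ad, 0.223, for a difference of -1.36 on the log2 scale (SE 0.41). For Hist1h1b the difference was -1.83 (SE 0.91, adjusted p = 0.370) and for Hist1h3c -0.36 (SE 0.52, adjusted p = 0.781). The median over the members was -0.45 and over all genes tested 0.01.

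Many H2A and H2B genes stand head to head and share the DNA between their start sites. There were 12 such pairs among the members, with start sites 176 to 306 bases apart. In WT with Ang II both genes of a pair were higher without overlap in 2 pairs, 1 gene in 7 and neither in 3. Of all genes with a count, 12.1% were higher without overlap in that comparison. Hist1h2aa and Hist1h2bq had 0 counts, and Hist1h2ba and Hist1h2br 1 count each over all libraries. These genes could not be higher without overlap. Hist1h2ad is paired with Hist1h2bf, whose start lies 185 bases away.

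Most histone genes outside the clusters, though not all, make only replacement histones from polyadenylated mRNAs. They were far more abundant here: H3f3b, which encodes histone H3.3, had a mean of 510 CPM, H2afy (macroH2A) 302 CPM and H2afz (H2A.Z) 259 CPM. Of the 10 tested of 11, 1 was called in WT with Ang II, against 7.3% of all genes tested. It was H2afx, named after its values were seen, which encodes the DNA damage histone H2A.X (log2 fold change 1.02, adjusted p = 0.00127). In all, 3 had an adjusted p under 0.05, against 3009 of all 16012 genes tested. H2afz was at 194, 201 and 224 CPM in WT sham and at 306, 359 and 336 CPM in WT Ang II, without overlap, a log2 fold change of 0.71 (SE 0.08, adjusted p = 0.00366). H3f3b had a value of 0.14 (SE 0.10, adjusted p = 0.367) and H2afy of 0.09 (SE 0.15, adjusted p = 0.694). In miR-214-/- 0 of 10 were called, as were 0 of all 15937 genes tested, and the smallest adjusted p of the 10 was 0.275.

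Slbp encodes the protein that binds the stem-loop and is needed for processing and translation of the mRNA. It was at 59.2, 57.7 and 72.4 CPM in WT sham and at 97.7, 136 and 134 CPM in WT Ang II, without overlap. Its log2 fold change of 0.98 (SE 0.15, adjusted p = 0.00763) was just under the limit of 1 used for calls. In miR-214-/- it was at 67.0, 82.2 and 83.2 CPM in sham and 97.5, 76.1 and 70.9 CPM in Ang II (log2 fold change 0.08, SE 0.14, adjusted p = 0.840), with library 1 the highest. Its interaction was -0.88 (SE 0.22, adjusted p = 0.213). Of the 11 genes of histone mRNA 3′ processing, 2 had an adjusted p under 0.05 in WT, close to the share of all genes tested (3009 of 16012). None of the 11 was called, against 7.3% of all genes tested. Lsm10 at 0.03 (adjusted p = 0.913) and Lsm11 at -0.08 (adjusted p = 0.752) are parts of the U7 particle that cuts the mRNA. Zfp473, which links SLBP to that particle, had a value of 0.57 (adjusted p = 0.189).

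Of 8 genes of histone gene transcription, 2 were called in WT, against 7.3% of all genes tested. These were Ccne1 at 1.64 and Ccne2 at 2.34, named after their values were seen, which encode cyclin E. Npat, the coactivator that cyclin E and its kinase act on, had a value of 0.22 (SE 0.08, adjusted p = 0.113). Hinfp, which binds H4 promoters, had -0.09 (SE 0.08, adjusted p = 0.477), and Casp8ap2 (FLASH), a partner of the U7 particle, had 0.05 (SE 0.11, adjusted p = 0.772). Of 15 histone chaperones, 10 had an adjusted p under 0.05, against 3009 of all 16012 genes tested, and 4 were called higher, against 7.01%. The 4 were Asf1b (1.63), Chaf1a (2.09), Chaf1b (1.27) and Mms22l (1.04), also named after their values were seen. Chaf1a and Chaf1b encode subunits of CAF-1, which places new H3 and H4 on replicated DNA. The 3 most abundant chaperones had smaller values, 0.22 for Npm1 (adjusted p = 0.207), 0.36 for Nap1l1 (adjusted p = 0.0166) and 0.29 for Rbbp4 (adjusted p = 0.0366). Of 5 genes of histone mRNA decay 0 were called, against 7.3% of all genes tested. In miR-214-/- 0 genes of all these lists were called, as were 0 of all 15937 genes tested.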

How the data were processed

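RNA of T cells from 12 mice was captured on oligo(dT) beads and sequenced as paired reads of 150 bases. The authors trimmed reads with Trimmomatic, mapped them to GRCm38 with STAR and counted unique reads in exons with featureCounts (Subread 1.5.2). The deposited values were raw counts per gene, with no normalization. The strand setting and the annotation release of the counting are not given in the sources used here. All columns were used, and total counts per library were 21126874 to 29605988.

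The counts were analysed with edgeR 4.0.16 in R 4.3.3: filterByExpr on the groups compared, TMM scaling, the quasi-likelihood test, and Benjamini-Hochberg adjustment over all genes tested. A call needed an adjusted p below 0.05 together with a log2 fold change beyond 1 either way. The interaction was called on its adjusted p alone. DESeq2 1.42.0, other scalings and filters, a single fit, a bias-adjusted deviance, the replicate block and leaving out each library were alternatives. The fit was tested on simulated counts with known changes first.

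No 2 libraries of a group were identical (chi-square per degree of freedom 9.68 to 64.6). Replicates are separate mice. Named genes were the 5 members of each class with the highest mean CPM, members called, and a short list of related genes. Members, lists and rules were chosen with earlier results of these data known, and the 3′ end split was added after the counts were seen. Sequences came from GENCODE and RefSeq tables, and figures were drawn with matplotlib 3.10.9.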

Additional observations from a re-analysis of the deposited data

How the results depend on the processing

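Members called in WT with Ang II (3 as reported) numbered 2 by DESeq2, 4 without a filter or in a single fit over all groups, 1 with at least 10 counts in every library and 0 with the replicate number as a block. Leaving out 1 library gave 0 to 5: 0 without WT sham 1, 1 without WT sham 2, WT sham 3, WT Ang II 2 or WT Ang II 3, and 5 without WT Ang II 1. Over all alternatives the adjusted p was 0.00271 to 0.0575 for Hist1h2ad, 0.0120 to 0.0867 for Hist1h1b and 0.0236 to 0.185 for Hist1h3c, with positive values in each. The groups share replicate numbers, but 7 of 18 same-numbered pairs correlated above 0.1 (range -0.559 to 0.341) and 0 of 12 libraries correlated best with their own number, so the numbers were not read as pairs. With this block the adjusted p was 0.0557 for Hist1h2ad, 0.0532 for Hist1h1b and 0.0913 for Hist1h3c, and the value of Hist1h1e turned to 0.15. In the other comparisons 0 members were called under every alternative run.

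The median of the members tested in WT (0.29) was 0.91 by DESeq2, 0.94 without a filter, 0.13 with at least 10 counts in every library and 0.26 to 0.82 with 1 library left out, and that of the interaction (-0.45) was -0.85 and -0.92 in the first 2. The set of members that enters the median differs between these settings by their construction. The ratio of short 3′ end sums, added after the counts were seen, was 2.07 to 2.43 in WT and 0.815 to 1.17 in miR-214-/- with 1 library left out, and 2.25 to 2.31 in WT under other scalings. The ratio of long 3′ end sums with 1 library left out was 0.992 to 1.21 in WT and 0.833 to 1.01 in miR-214-/-. Slbp passed the limit of 1 in WT by library size scaling (1.02) and, by less, without a filter, and its interaction passed the test by DESeq2 (-0.91).

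Leaving out 1 library turned the sign of values near 0. In WT the ranges were -0.087 to 0.35 for Hist1h1c, -0.45 to 0.82 for Hist1h1e, -0.13 to 0.36 for Hist1h2be, -0.25 to 0.10 for Hist2h2be, -0.43 to 0.056 for Hist3h2ba, -0.48 to 0.32 for Hist1h4d, -0.029 to 0.52 for Hist1h4h, -0.037 to 0.12 for Casp8ap2, -0.076 to 0.13 for Lsm10, -0.22 to 0.039 for Lsm11 and -0.10 to 0.21 for H2afy. In miR-214-/- they were -0.16 to 0.11 for Hist1h1c, -0.16 to 0.27 for Hist1h4i and -0.076 to 0.17 for Slbp. Between the sham groups they were -0.033 to 0.28 for Hist1h1c, -0.25 to 0.050 for Hist3h2a and -0.017 to 0.24 for Hist2h2be. For Hist1h1c they were -0.23 to 0.22 between the Ang II groups and -0.39 to 0.051 for the interaction. The cause of these changes was not tested. Depth limits most members: 45 never exceeded 20 counts in a library.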
